A study of Homo sapiens with 3 samples.

Results

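The 35 genes described here are the hypoxia-response genes of CaSki cells: the alpha subunits of the hypoxia-inducible factors (HIF), the enzymes and the ligase subunit that control them, and HIF target genes other than the core glycolytic enzymes. They were taken by symbol from a list drawn up with earlier results of these data known, so the counts below describe that list. All 35 were found among the 23277 symbols of the data. CaSki is an established human cervical carcinoma cell line of epidermoid type. The 3 groups were CaSki cells with the pMSCV empty vector given an siRNA against GFP, CaSki cells with pMSCV/FLAG-NANOG given the same GFP siRNA, and CaSki cells with pMSCV/FLAG-NANOG given an siRNA against HDAC1. NANOG, a homeobox protein, maintains pluripotency in stem cells, whereas HDAC1 removes acetyl groups from histones. pMSCV is a retroviral vector that drives its insert from a viral promoter, so NANOG was expressed outside its usual setting. All 3 groups therefore carried a vector and had been given an siRNA. Oxygen level, cell density, time after transfection and whether the transduced cells were a clone or a pool were not given in the sources used here. HDAC1 siRNA without NANOG was not analysed here.

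HIF is a pair of proteins, an oxygen-sensitive alpha subunit and a stable partner of the ARNT family. In oxygenated cells prolyl hydroxylases of the EGLN family mark the alpha subunit, and the VHL ubiquitin ligase then has it degraded. When oxygen is short the alpha subunit persists, binds short DNA elements near its targets and turns on genes of glucose use, acid export, blood vessel growth, matrix building and mitochondrial turnover. Several of these targets, EGLN1 and EGLN3 among them, feed back on the pathway. In cervical and other squamous carcinomas CA9 is widely used as a tissue marker of hypoxia. Control of the alpha subunit is mainly at the protein level, which RNA sequencing does not measure.

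With a single library in each group (n = 1), the differences have no replicate check, and neither a test nor an interval could be given. Levels are in FPKM, fragments per transcript length and library size, which allows levels of different genes to be compared per length. The number of fragments behind a value is unknown. Among low values, where 1 fragment makes 1 step, the most frequent ratio was searched only among ratios near 1. It was 1.019 for the empty vector library over the NANOG library with GFP siRNA (313 of 2548 genes). For the HDAC1 siRNA library over the same library it was 1 (377 of 2694 genes). A search limited to ratios near 1 cannot decide whether depth was similar. Differences are of log2(FPKM + 1), a scale that understates the change of low genes, and a gene counts as 2-fold lower or higher when its difference reaches 1 in size. The transcript of NANOG itself measured 0.0357 FPKM with empty vector, against 298 and 325 FPKM in the NANOG libraries with GFP and HDAC1 siRNA. HDAC1 stood at 19.0, 108 and 12.8 FPKM in the same order, so the high value with GFP siRNA enters every contrast with that library. The 8 epithelial markers summed to between 4767 and 5628 FPKM, with none at 0 and TP63 the lowest at 0.785 to 1.29 FPKM. The 6 fibroblast markers summed to between 2.73 and 4.75 FPKM, mostly COL1A1, with 1 to 3 of them at 0. The 4 leukocyte and 4 endothelial markers summed to at most 0.220 and 0.493 FPKM. Of the endothelial markers KDR was at 0 in every library, whereas CDH5 and VWF were above 0 in every library, reaching 0.438 and 0.122 FPKM.

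Hypoxia-response genes were lower with NANOG almost throughout, and most were also below their empty vector level with NANOG and HDAC1 siRNA. Summed over the 35 genes, the level was 2405 FPKM without NANOG. It was 1117 FPKM with NANOG and GFP siRNA, and 1273 FPKM when HDAC1 siRNA took the place of GFP siRNA. Of all 35 genes with no filter, 32 were lower with NANOG than with empty vector and 3 were higher, where 39.3% of all 21656 genes were lower on the same terms. The filter used for all counts that follow, an average over libraries of 1 FPKM or more, was met by 32 of the 35, and 31 of these were lower, where 50.8% of the genes compared were. CA12, SLC2A3 and STC1 were below it, and CA9 and ANGPTL4 met it only through the empty vector library. Of the 32, 13 were at least 2-fold lower with NANOG and 0 at least 2-fold higher, against 1.22% and 0.675% of the 11401 genes compared; without CA9 and ANGPTL4 the count was 11 of 30. At 1.5-fold, 24 were lower and 0 higher, against 5.26% and 3.47%, and at 3-fold 6 were lower, against 0.298%. The median difference over the 32 was -0.88, beside -0.01 over all genes compared. With fewer cells of a type and less RNA per cell a bulk library gives the same value, and these cannot be told apart here.

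**Figure D1:**
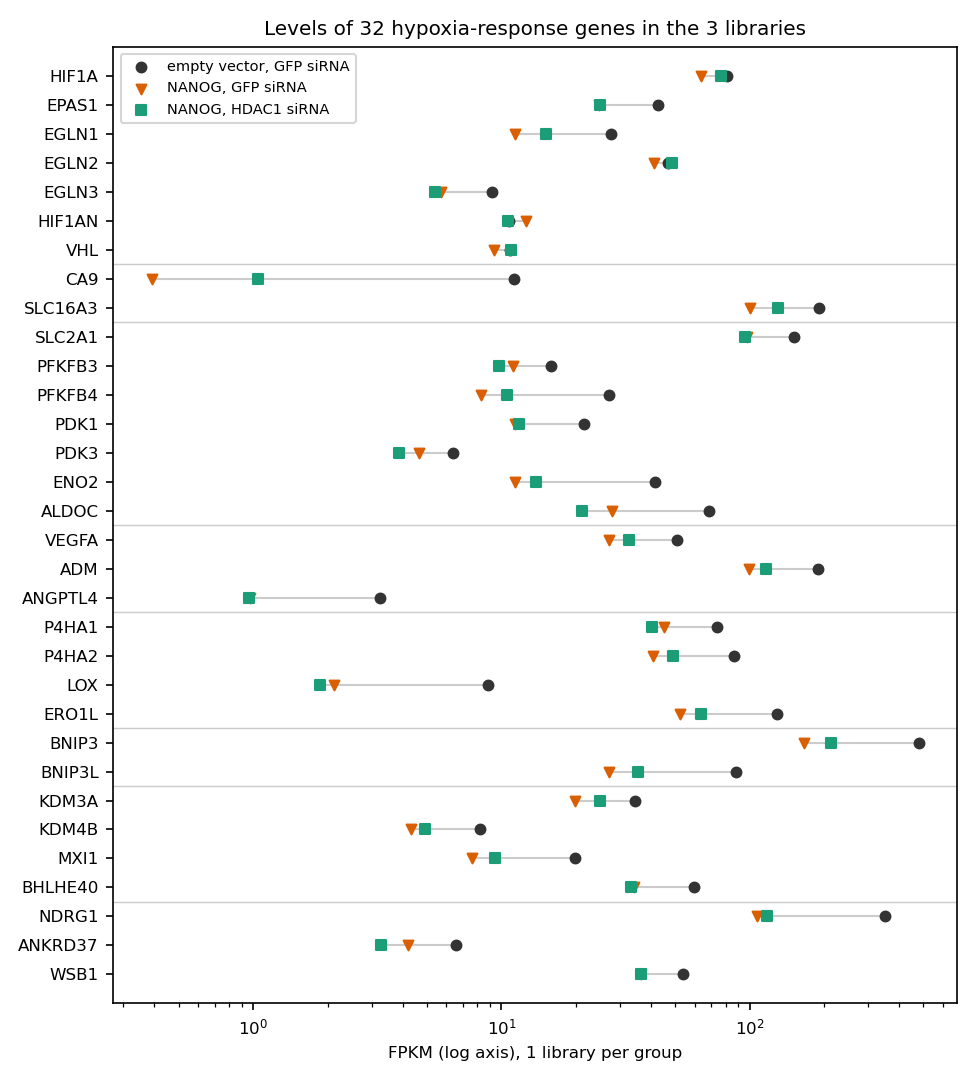
FPKM on a log axis for the 32 hypoxia-response genes that met the filter, 1 point per library, with genes grouped by role between the grey lines. The empty vector point lies furthest right for 29 of the 32 genes, and the exceptions are EGLN2, HIF1AN and VHL.

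The DNA just before the starts of these genes was read from RefSeq, build GRCh38.p14, to show the short elements to which HIF binds. The values themselves were made on build hg19, and no coordinate of that build is used. The table held 42 windows for 29 of the 35 genes and none for VEGFA, VHL, SLC2A3, BNIP3L, NDRG1 and STC1. Each stretch below covers the 250 bases before the annotated start, 5′ to 3′ on the gene's own strand, with the HIF core motifs ACGTG and GCGTG in capitals. A motif on the opposite strand reads CACGT or CACGC, and CACGTG is ACGTG on both strands, overlapping itself. Shown are the 5 compared genes with a single window and the largest decreases with NANOG, and HIF1AN, the 1 compared gene that was higher. They lie at chr9:35673678-35673927 on the plus strand for CA9, chr12:6914330-6914579 on the plus strand for ENO2, chr3:48556804-48557053 on the minus strand for PFKFB4, chr10:131981924-131982173 on the minus strand for BNIP3, chr14:52695559-52695808 on the minus strand for ERO1L, which RefSeq names ERO1A, and chr10:100535693-100535942 on the plus strand for HIF1AN.
CA9: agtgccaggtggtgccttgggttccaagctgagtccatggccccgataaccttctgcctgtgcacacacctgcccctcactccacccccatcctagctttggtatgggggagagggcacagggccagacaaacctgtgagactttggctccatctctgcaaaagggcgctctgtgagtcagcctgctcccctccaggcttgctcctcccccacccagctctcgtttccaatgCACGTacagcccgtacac
ENO2: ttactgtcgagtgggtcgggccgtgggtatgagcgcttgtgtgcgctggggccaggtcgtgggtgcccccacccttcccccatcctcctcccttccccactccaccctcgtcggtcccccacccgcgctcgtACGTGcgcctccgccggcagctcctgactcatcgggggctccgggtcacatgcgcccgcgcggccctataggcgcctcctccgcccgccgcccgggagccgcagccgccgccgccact
PFKFB4: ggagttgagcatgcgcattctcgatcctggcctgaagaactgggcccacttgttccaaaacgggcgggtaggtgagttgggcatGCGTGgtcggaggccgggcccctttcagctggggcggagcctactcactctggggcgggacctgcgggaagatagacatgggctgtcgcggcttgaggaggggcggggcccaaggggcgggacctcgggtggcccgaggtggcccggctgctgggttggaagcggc
BNIP3: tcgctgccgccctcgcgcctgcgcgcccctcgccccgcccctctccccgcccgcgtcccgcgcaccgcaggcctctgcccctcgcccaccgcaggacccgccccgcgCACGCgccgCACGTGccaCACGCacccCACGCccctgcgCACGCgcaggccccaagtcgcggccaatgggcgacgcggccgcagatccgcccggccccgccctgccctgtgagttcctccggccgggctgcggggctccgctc
ERO1L: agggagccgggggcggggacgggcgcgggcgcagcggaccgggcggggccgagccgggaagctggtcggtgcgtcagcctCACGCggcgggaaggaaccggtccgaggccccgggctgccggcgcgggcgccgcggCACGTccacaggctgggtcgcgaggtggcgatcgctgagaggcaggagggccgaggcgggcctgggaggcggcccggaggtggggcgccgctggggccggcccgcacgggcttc
HIF1AN: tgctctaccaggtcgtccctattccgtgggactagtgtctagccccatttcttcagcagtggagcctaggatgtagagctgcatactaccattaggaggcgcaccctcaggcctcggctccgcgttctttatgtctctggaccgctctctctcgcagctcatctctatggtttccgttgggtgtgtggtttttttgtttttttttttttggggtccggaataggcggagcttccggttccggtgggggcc

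The stretch of CA9 holds 1 ACGTG core on the opposite strand, 18 bases before the start, and that of ENO2 holds 1 on the gene's own strand. PFKFB4 has 1 GCGTG core and no ACGTG, ERO1L has 1 of each, and BNIP3 has a CACGTG palindrome among 4 GCGTG cores. The HIF1AN stretch has neither. ACGTG, on either strand, was found in 21 of the 42 windows (50%), against 18.5% of all 35116 windows of the table and 22.8% of the 11908 windows of genes compared. GCGTG was found in 45.2% of the 42 windows, against 32.2% and 44.2%. Windows of 1 gene can overlap, and all these genes were listed as HIF genes beforehand, so the shares describe the list. The median number of CpG dinucleotides, which both motifs contain, was 23.5 for the 42 windows, 21 for genes compared and 11 for all windows. Among the 28 compared genes with a window, 19 held ACGTG in at least 1 of them and had a median difference with NANOG of -0.92, beside -0.77 for the 9 without. CA9 and ANGPTL4, which met the filter only through the empty vector library, are among the 19. HIF1A, EPAS1, EGLN3 and HIF1AN, from the role with the smallest differences, are among the 9. A gene with several windows also has more places to hold a motif, so these medians do not show an effect of the motif. For GCGTG the medians were -0.91 for the 14 with it and -0.74 for the 14 without. Among all compared genes with a window, the 2428 that held ACGTG had a median of -0.01 and the 5729 without it 0.00, and the medians for GCGTG were -0.01 and 0.00 as well.

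**Figure D2:**
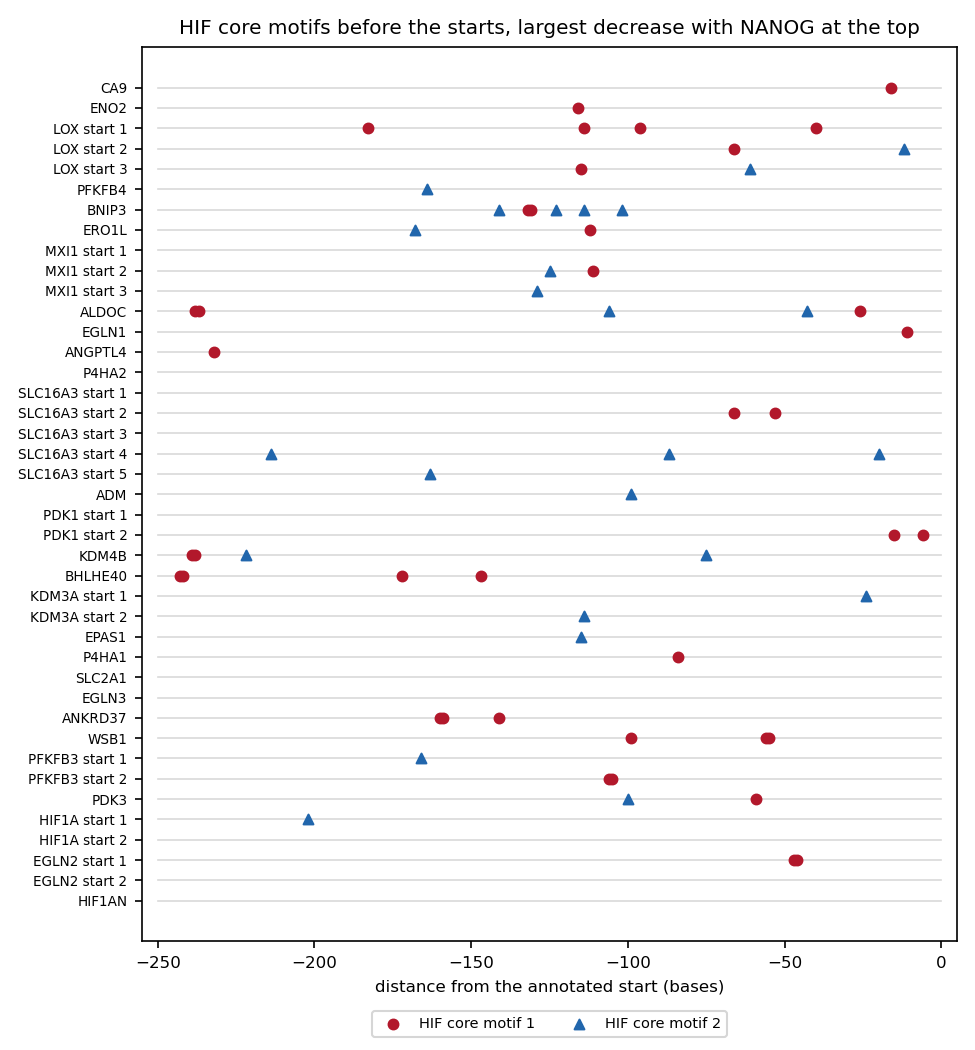
Positions of the HIF core motifs ACGTG (motif 1, circles) and GCGTG (motif 2, triangles), on either strand, in the 250 bases before each annotated start of the 28 compared genes with a window, in bases from the start. Genes are ordered by their difference between NANOG and empty vector, from CA9 (-3.14) at the top to HIF1AN (0.21) at the bottom, and matches occur along the whole order.

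The 7 HIF subunits and regulators had the smallest median difference with NANOG of all roles (-0.35). HIF1A, the broadly expressed alpha subunit, was at 81.4, 63.5 and 76.8 FPKM, in the order empty vector, NANOG with GFP siRNA, NANOG with HDAC1 siRNA, which is kept for all genes that follow. Its difference with NANOG was -0.35, and with HDAC1 siRNA added it stood at 94.4% of its empty vector level. The antisense symbol HIF1A-AS2 was at 56.4, 48.4 and 54.4 FPKM; the way strand was counted is not given in the sources used here, so reads of the pair cannot be told apart. EPAS1, which encodes the other main alpha subunit, was at 42.8, 24.7 and 25.0 FPKM, a difference of -0.77 with NANOG that was about as large with HDAC1 siRNA added (-0.75). VHL, the substrate receptor of the ligase, was at 10.8, 9.35 and 10.9 FPKM. HIF1AN, the asparaginyl hydroxylase that blocks HIF activity, was at 10.7, 12.6 and 10.6 FPKM, and its difference of 0.21 with NANOG was the 1 above 0 among the 32 genes.

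The 3 prolyl hydroxylases differed among themselves. EGLN1, the main oxygen sensor of most cells and itself a HIF target, was at 27.7, 11.3 and 15.1 FPKM. Its difference of -1.22 with NANOG was the only one in the group of 7 HIF subunits and regulators to pass 2-fold. Of all genes compared, 1.22% were at least 2-fold lower. EGLN3, the most strongly hypoxia-inducible of the family, was at 9.13, 5.68 and 5.38 FPKM (-0.60 with NANOG). EGLN2, which is not induced by hypoxia, was at 46.9, 41.1 and 48.8 FPKM (-0.19 with NANOG) and was the most abundant of the family in each library. The readthrough symbol RAB4B-EGLN2 was at most 0.537 FPKM, so it adds little to EGLN2.

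Genes of acid handling included the gene that differed most. CA9, the membrane carbonic anhydrase, was at 11.3, 0.389 and 1.05 FPKM. The NANOG level was 3.45% of the empty vector level, and the difference of -3.14 was the seventh lowest of the 11401 genes. With such low NANOG levels its difference depends on the pseudocount and was -4.54 with 0.1 FPKM in place of 1. SLC16A3, the lactate exporter of glycolytic cells, was at 191, 100.6 and 129.9 FPKM, or -0.92 with NANOG. CA12, the related membrane carbonic anhydrase, was at 0.00916, 0.0360 and 0.0360 FPKM and thus was barely detected in any library.

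The genes of glucose uptake and mitochondrial fuel choice were all lower with NANOG, by -0.38 to -1.79 over the 7 compared, where 50.8% of all genes were lower. ENO2, an enolase isoform, was at 41.7, 11.3 and 13.7 FPKM and had the second largest decrease of the 32 genes (-1.79). PFKFB4, which sets the level of a glycolysis-activating sugar phosphate, was at 27.0, 8.30 and 10.5 FPKM (-1.59), whereas its relative PFKFB3 was at 15.9, 11.2 and 9.75 FPKM (-0.48). PFKFB4 was thus above PFKFB3 in empty vector cells, below it with NANOG and GFP siRNA and above it with HDAC1 siRNA. ALDOC, an aldolase isoform, was at 68.5, 27.8 and 21.1 FPKM (-1.27 with NANOG). PDK1, which shuts pyruvate out of the mitochondrion, was at 21.5, 11.3 and 11.7 FPKM (-0.87), and PDK3 of the same family at 6.36, 4.66 and 3.85 FPKM (-0.38). SLC2A1, the main glucose transporter of epithelial cells, was at 151, 97.9 and 95.4 FPKM (-0.62). SLC2A3, the neuronal-type glucose transporter, was at most 0.0276 FPKM.

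The 3 secreted factors that met the filter were all lower with NANOG, where 50.8% of all genes compared were. ANGPTL4 met the filter only through the empty vector library, which favours a lower value with NANOG. VEGFA, the principal angiogenic factor, was at 50.9, 27.1 and 32.7 FPKM (-0.89 with NANOG). ADM, which encodes the vasodilator peptide adrenomedullin, was at 188, 99.8 and 116 FPKM (-0.91). ANGPTL4, a secreted inhibitor of lipoprotein lipase, was at 3.24, 0.975 and 0.957 FPKM (-1.10). The NANOG levels of VEGFA and ADM were 53.2% and 53.0% of the empty vector level, and that of ANGPTL4 was 30.1%. STC1, a secreted glycoprotein, was listed at 0 with empty vector and with HDAC1 siRNA, and at 0.0275 FPKM with NANOG and GFP siRNA.

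All 4 enzymes that build and fold secreted proteins were lower as well, where 50.8% of all genes compared were. Of the 4, 3 were at least 2-fold lower, where 1.22% of all genes were. LOX, which crosslinks collagen, was at 8.81, 2.12 and 1.86 FPKM (-1.65 with NANOG), so that its NANOG level was 24.1% of the empty vector level. The catalytic subunits of collagen prolyl hydroxylase, P4HA1 at 74.2, 45.1 and 40.4 FPKM and P4HA2 at 86.3, 40.9 and 49.2 FPKM, differed by -0.71 and -1.06. ERO1L, the oxidase that drives disulfide formation in the endoplasmic reticulum, was at 128.7, 52.5 and 63.7 FPKM (-1.28). Among these 4, the HDAC1 siRNA library was the lowest for LOX and P4HA1, and the NANOG library with GFP siRNA for P4HA2 and ERO1L.

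BNIP3 and BNIP3L, receptors that mark mitochondria for removal by autophagy, differed alike. BNIP3 was the most abundant of the 35 genes in every library, at 479.7, 166 and 212 FPKM (-1.52 with NANOG). BNIP3L was at 87.8, 27.2 and 35.7 FPKM (-1.65). With NANOG they stood at 34.6% and 31.0% of their empty vector levels, and with HDAC1 siRNA added at 44.2% and 40.6%.

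Of the 4 chromatin and transcription genes, MXI1, an antagonist of MYC, was at 19.8, 7.59 and 9.42 FPKM (-1.28 with NANOG). The other three were lower by less than 2-fold. The histone demethylase KDM3A was at 34.5, 19.8 and 25.0 FPKM (-0.77), its counterpart KDM4B at 8.20, 4.33 and 4.93 FPKM (-0.79) and the transcriptional repressor BHLHE40 at 59.5, 34.3 and 33.4 FPKM (-0.78). Among the remaining genes NDRG1, a stress-induced gene, stood out at 351, 107 and 118 FPKM (-1.70). ANKRD37, an ankyrin-repeat gene, was at 6.58, 4.19 and 3.27 FPKM (-0.55), and WSB1, which encodes a ubiquitin ligase subunit, at 53.8, 36.5 and 36.5 FPKM (-0.55).

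Between the NANOG libraries with HDAC1 siRNA and with GFP siRNA the differences of these genes ran from -0.38 to 0.56. None of the 32 passed 2-fold or 1.5-fold in either direction between HDAC1 siRNA and GFP siRNA. Of the genes compared, 0.211% were at least 2-fold lower and 0.0877% at least 2-fold higher. At 1.5-fold, 1.43% were lower and 0.675% higher, so a count of 0 among 32 is near the share of all genes. This count depends on the pseudocount: with 0.1 FPKM in place of 1, CA9 (0.389 and 1.05 FPKM) differed by 1.23 and was the 1 gene at least 2-fold higher, where 0.184% of all genes were. The median over the 32 was 0.18, beside 0.01 over all genes, and 21 of 32 were higher and 11 lower, where 53.4% and 46.6% of all genes were. When every library was rescaled to the same sum (TPM), the median over all genes moved to 0.18 and that over the 32 genes to 0.36, and 6 were below 0, where 18.7% of all genes were. With a filter of 5 FPKM, 7 of the 27 genes left were below 0, where 44.8% of all genes were. CA9 (0.56), EGLN1 (0.38), BNIP3L (0.38), SLC16A3 (0.37) and BNIP3 (0.35) had the largest positive differences. ALDOC (-0.38), ANKRD37 (-0.28), PDK3 (-0.22) and HIF1AN (-0.22) had the largest negative ones, and these kept their sign under the 3 other scalings tried. EGLN3, SLC2A1, ANGPTL4, P4HA1 and BHLHE40, between -0.16 and -0.01 as deposited, were above 0 after TPM scaling.

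**Figure D3:**
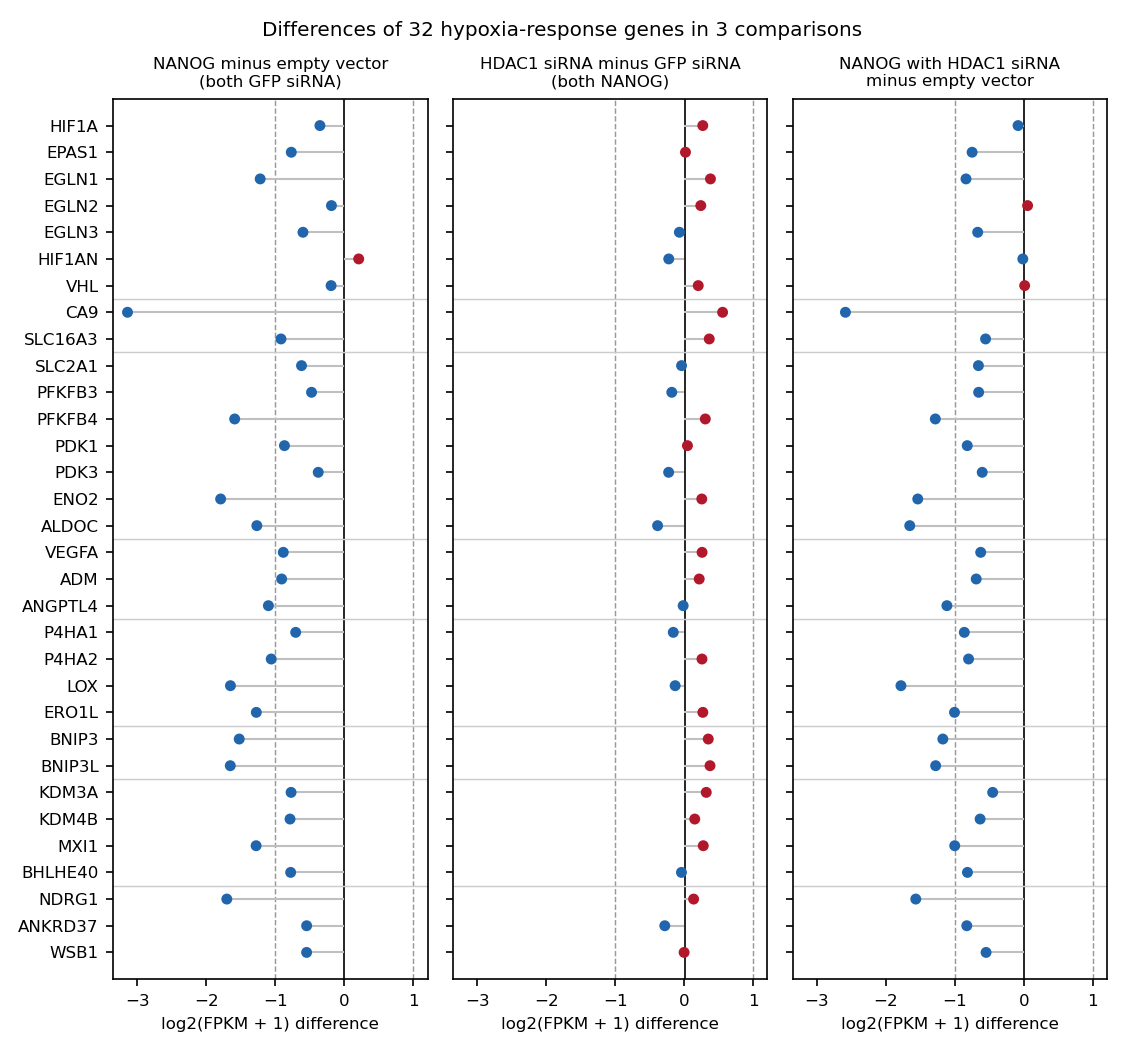
Differences of log2(FPKM + 1) for the 32 genes in the 3 comparisons, with a black line at the median of all genes compared and dashed lines at 2-fold. In the left panel 31 of 32 points lie below 0 and 13 at or below -1, in the middle panel every point lies between -0.38 and 0.56, and in the right panel 30 of 32 lie below 0.

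Most of the list was lower in cells with NANOG and HDAC1 siRNA than in empty vector cells. Between these libraries 30 of the 32 genes were lower, where 50.2% of all genes were lower and 49.8% higher, and 11 were at least 2-fold lower, where 0.824% were. None was at least 2-fold higher, where 0.368% were. At 1.5-fold, 25 were lower and 0 higher, against 3.46% and 1.78%, and at 3-fold 3 were lower, against 0.219%. Without CA9 and ANGPTL4, 9 of 30 were at least 2-fold lower. The median was -0.81, beside 0.00 over all genes. CA9 (-2.58), LOX (-1.78), ALDOC (-1.65), NDRG1 (-1.57) and ENO2 (-1.54) had the largest decreases, and ERO1L and MXI1, at 49.5% and 47.5% of the empty vector level, sat just past the threshold and fell short of it after TPM scaling (-0.87 and -0.90). EGLN1 (-0.84) and P4HA2 (-0.80) were at least 2-fold lower with NANOG and GFP siRNA and not here. EGLN2 (0.06) and VHL (0.01) were the 2 genes above 0, and after TPM scaling HIF1A (-0.08 as deposited) and HIF1AN (-0.01) were above 0 too, at 0.05 and 0.12. This comparison shares a library with each of the other two, so the 3 sets of values are not independent.

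By the order of the 3 levels, 19 of the 32 genes were highest in empty vector cells, lower with HDAC1 siRNA and lowest with NANOG and GFP siRNA, an order held by 26.2% of all genes compared. EGLN1, CA9, ENO2, PFKFB4, BNIP3, BNIP3L, NDRG1 and VEGFA were among them. A further 10 were highest in empty vector cells and lowest with HDAC1 siRNA, against 13.5% of all genes, among them LOX, ALDOC, PFKFB3, PDK3 and ANKRD37. After TPM scaling the first order was held by 23 of the 32 genes, against 23.3% of all genes, and the other by 5, against 3.77%. EGLN3, SLC2A1, ANGPTL4, P4HA1 and BHLHE40 were no longer lowest with HDAC1 siRNA on that scale. The sums behind it include small RNA symbols, which held 21.2%, 23.1% and 16.0% of the summed FPKM of the 3 libraries. TPM without them was not tested. None of the 32 genes had the order lowest in empty vector and highest with NANOG and GFP siRNA, which 22.6% of all genes had. In all, 29 of 32 were highest in empty vector cells, against 39.7% of all genes compared. With 1 library a group, the order of neighbouring levels such as 11.3 and 11.7 FPKM for PDK1 has no error by which to judge it.

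The rest of the HIF pathway was taken from a list of 12 machinery genes and 46 further targets, of which 11 and 41 were compared. Of the 11 machinery genes 9 were lower with NANOG, where 50.8% of all genes were, with a median of -0.24 beside -0.01 over all genes. At 1.5-fold 2 were lower, against 5.26% of all genes. ARNT, the common partner of the alpha subunits, was at 8.92, 7.38 and 7.43 FPKM (-0.24). ARNT2, its relative better known from neurons, was at 15.6, 2.84 and 2.80 FPKM (-2.11). It was the 1 machinery gene past 2-fold, where 1.22% of all genes were at least 2-fold lower. The coactivator genes CREBBP and EP300 differed by -0.40 and -0.54, and CITED2, a HIF target that competes for these coactivators, by -0.28. SIAH1 and SIAH2, ligases that act on the prolyl hydroxylases, differed by -0.19 and -0.64. Of the VHL ligase, CUL2 (-0.09), RBX1 (-0.13), TCEB1 (0.06) and TCEB2 (0.18) were near the median of all genes. HIF3A stayed at or below 0.130 FPKM.

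The 41 further targets were lower nearly as broadly as the 32 genes, which is a description of both lists. With NANOG 39 of 41 were lower, where 50.8% of all genes were, and 16 at least 2-fold lower, where 1.22% were. The median was -0.90. PPFIA4 (9.76 to 2.10 FPKM), the collagen lysyl hydroxylase gene PLOD2 (117 to 34.2 FPKM), IGFBP3 (371 to 117 FPKM), VLDLR (33.9 to 11.1 FPKM) and FAM162A (103 to 36.3 FPKM) had the largest decreases, of -1.80 to -1.48. HMOX1, the heme oxygenase gene, which also answers to oxidative stress, went the other way at 27.4, 99.1 and 36.6 FPKM (1.82), and the lactate and pyruvate transporter gene SLC16A1 was at 40.6, 42.3 and 42.6 FPKM (0.06). Between HDAC1 siRNA and GFP siRNA 31 of 41 were higher (median 0.16), where 53.4% of all genes were. MAFF (0.80), VLDLR (0.71), ITGA5 (0.60), STC2 (0.59) and FUT11 (0.45) led them. HMOX1 (-1.41), CCNG2 (-0.29), SAP30 (-0.20) and IGFBP3 (-0.15; 0.03 after TPM scaling) were among the lowest in that contrast. Against empty vector, NANOG cells with HDAC1 siRNA had 38 of 41 lower (median -0.71), where 50.2% of all genes were lower. IGFBP3 (-1.81), PPFIA4 (-1.50), PLOD2 (-1.42), FAM162A (-1.30) and SPAG4 (-1.25) were the lowest. HMOX1 (0.40), SLC16A1 (0.07) and MAFF (0.07) were the highest. The 14 core glycolytic enzymes were also mostly lower with NANOG, 13 of 14, where 50.8% of all genes were. Their median was -0.64 and their lowest value -1.08, and 1 gene was at least 2-fold lower, against 1.22% of all genes. With the median of each class of transcript length removed, the medians were -0.75 for the glycolytic enzymes, -0.75 for 31 of the 32 hypoxia-response genes and -0.74 for the other HIF genes.

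**Figure D4:**
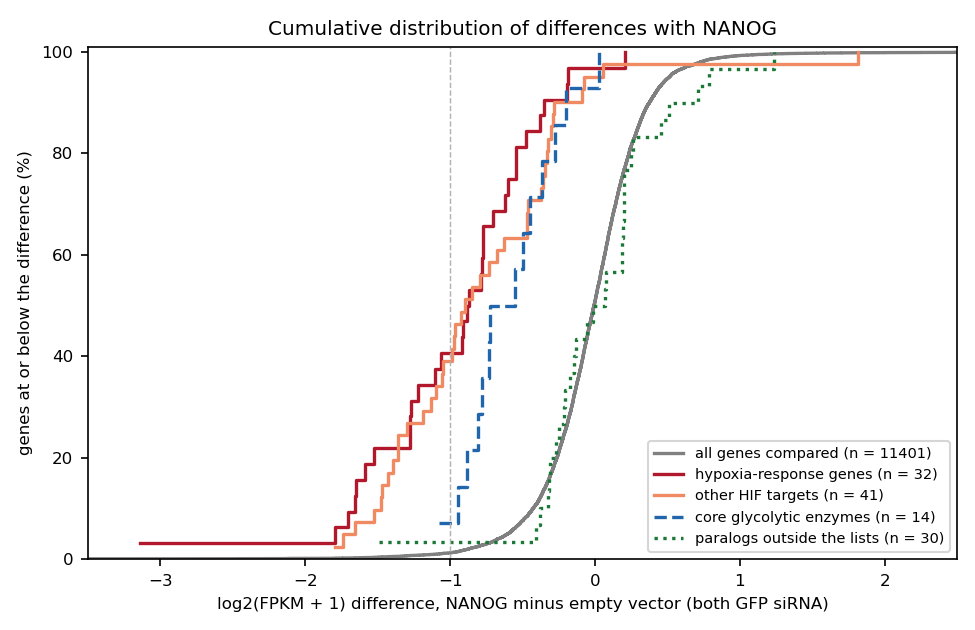
Cumulative percentage of genes at or below a given log2(FPKM + 1) difference between NANOG and empty vector, for all genes compared, the 32 hypoxia-response genes, 41 other HIF targets, 14 glycolytic enzymes and 30 paralogs outside these lists. At the dashed line at -1 the red curve of the 32 genes has reached 40.6%, and the dotted paralog curve runs near the grey curve of all genes.

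Paralogs give a comparison within gene families, chosen after the values had been seen. All other symbols of 20 families of these genes were taken, leaving out those on the lists above, and 30 of 70 were compared. Absence from the lists does not mean that a paralog is unrelated to HIF or hypoxia. With NANOG 15 were lower and 15 higher, where 50.8% and 49.2% of all genes were, and the median was 0.03. In each direction 1 passed 2-fold, where 1.22% of all genes were lower and 0.675% higher by that much. PDK2, which is not known as a HIF target, was at 12.9, 13.7 and 12.8 FPKM (0.07), beside PDK1 at -0.87. NDRG3 was at 42.2, 50.9 and 43.3 FPKM (0.26), beside NDRG1 at -1.70. In the BHLHE pair BHLHE41 differed by 0.20 and BHLHE40 by -0.78, and the lysyl oxidase genes LOXL1 and LOXL3 differed by -0.05 and 0.20 beside LOX at -1.65 and LOXL2, one of the further HIF targets, at -1.10. CA2, the abundant cytosolic carbonic anhydrase, was at 5.12, 5.97 and 5.43 FPKM (0.19). KDM3B (-0.21), KDM4A (-0.21), VEGFB (-0.41), PFKFB2 (-0.31) and WSB2 (-0.17) were lower, each by less than its relative among the 35 genes. Monocarboxylate transporters held the exceptions: SLC16A13 was at 33.2, 11.2 and 20.6 FPKM (-1.49), lower than SLC16A3 in difference, and SLC16A14 was at 0.581, 2.72 and 2.68 FPKM (1.23).

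**Figure D5:**
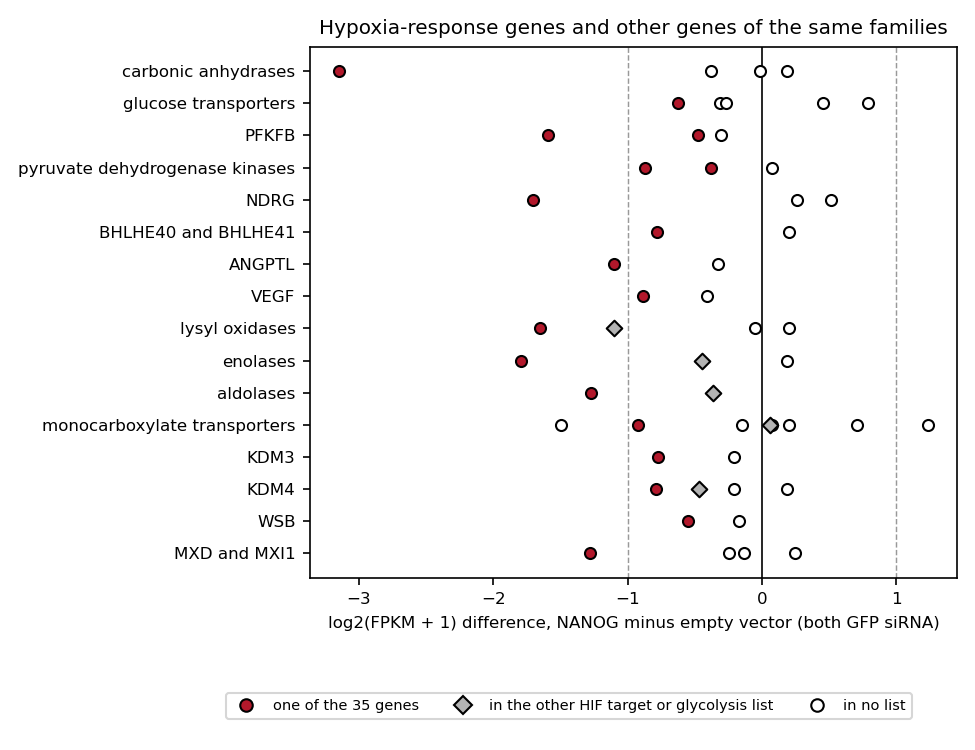
Log2(FPKM + 1) difference between NANOG and empty vector for the compared genes of 16 families that hold at least 1 of the 35 genes and another compared gene, 1 point per gene, with dashed lines at 2-fold. Filled red points lie furthest left in 15 of the 16 families, and the exception is the monocarboxylate transporters.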

How the data were processed

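Total RNA of 1 library per group was sequenced from 2 ug of RNA with a kit that keeps strand, per the labels' protocols. TopHat2, Cufflinks and build hg19 were used, per the submitters' processing notes; versions, annotation and strand handling were not given in the sources used here. Per-symbol FPKM values were deposited by the authors, and in this unit a few abundant RNAs in a library lower all its other values.

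Small RNA symbols (1621 of 23277, with 16.0% to 23.1% of the summed FPKM) were left out of comparisons and kept in the sums used for TPM. A pseudocount of 1 FPKM was added before log2 values were subtracted, for the 11401 genes averaging 1 FPKM or more. No test was possible with 1 library per group. Only the 2-fold counting was tested on simulated data, with larger changes placed in genes averaging at least 5 FPKM. Low genes and the other steps were not covered. The text names all 35 genes, the 12 machinery genes, and per comparison up to 5 further targets in each direction reaching 5 FPKM in either library, those above 0 for the highest; paralogs are named outside this rule, after their values were seen. A further target that the rule selects is not reported here. Members and lists were chosen with earlier results of these data known. Promoter bases came from RefSeq. Alternatives were pseudocounts, filters, scalings, folds, the mean, and classes of transcript length (GENCODE 29, 31 of 32 genes matched). Computation used pandas 2.3.3, numpy 2.4.6 and scipy 1.17.1 in Python 3.11.15, with plots by matplotlib 3.10.9.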

Additional observations from a re-analysis of the deposited data

How the results depend on the processing

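No paired analysis was possible because each group had 1 library, and no library could be left out. Of 183 recomputed counts and medians 167 stayed close (counts within 1.5 times, medians within 0.1). The 167 include those with small RNA symbols kept, a setting that could not change any value of these lists. With thresholds of 1.5-fold and 3-fold, 24 and 6 of the 32 genes were lower with NANOG (5.26% and 0.298% of all genes), and 25 and 3 (3.46% and 0.219%) in NANOG cells with HDAC1 siRNA against empty vector. Under TPM scaling the all-gene median was 0.18 in place of 0.01 for HDAC1 siRNA against GFP siRNA, with medians of 0.36 for the 32 genes (6 below 0, against 11 as deposited), 0.32 for the other HIF genes and 0.21 for glycolysis. Against empty vector it moved the median of all genes to 0.13, and those of the same lists to -0.68, -0.41 and -0.42. With a mean of at least 5 FPKM, which fewer genes met, 7 of 27 were below 0 for HDAC1 siRNA against GFP siRNA. With no filter the other HIF genes had a median of -0.51 with NANOG, against -0.66. Removing the median of 20 classes of transcript length, an alternative chosen after seeing the data, gave -0.75 for the 31 genes with a length and -0.75 for glycolysis with NANOG; Spearman's rho between length and difference was -0.20 across 10236 genes, which are not independent replicates. With a pseudocount of 0.1 FPKM the CA9 difference was -4.54 with NANOG and 1.23 with HDAC1 siRNA, which made it the 1 gene at least 2-fold higher there, and -3.31 against empty vector. ERO1L and MXI1 dropped under 2-fold in NANOG cells with HDAC1 siRNA against empty vector at the same upper quartile (-0.99 and -0.98) and under TPM (-0.87 and -0.90), and MXI1 also with length classes removed (-0.99). In NANOG against empty vector no sign changed among the genes each alternative covered, which were 27 with the 5 FPKM filter, 31 with length classes and 32 otherwise. With FPKM alone the precision of low values, such as CA9 and ANGPTL4 with NANOG, is unknown.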
